A study of Mus musculus with 11 samples.

Results

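Macro maps made with 2 different antibodies in mouse embryonic fibroblasts (MEFs) were compared: ChIP of the histone variant itself with an anti-MacroH2A2 antibody, and ChIP with an anti-HA antibody of HA-Macro, the same variant carrying an epitope tag and induced with doxycycline (Dox) for 12 h. They are 2 of the 11 ChIP-Seq libraries in the series, chosen by their antibody, cell type and time, and each condition has 1 library. The HA-Macro MEFs came from chimeric E12.5 embryos made with KH2 embryonic stem (ES) cells on a 129 X C57bl/6 background, with the Dox-responsive transactivator M2rtTA at the ROSA26 locus and a TetO-driven HA-MacroH2A2 cassette downstream of Col1a1. Because host cells lack the resistance gene, puromycin was used to select the donor-derived cells, which were then given 2 μg/mL Dox at passage 2. The anti-MacroH2A2 library is labelled as wild-type MEF with no treatment and as a combination of 2 replicates, whereas elsewhere the study names a 12 h induction for it, so that only its antibody and cell type are relied upon here. An anti-HA library from HA-Macro ES cells that received no Dox served as background, which may hold some tagged protein. The study gives low uninduced expression as the likely source of trace promoter signal there. It names artifactual isolation of open chromatin as an alternative, and its Western blots detected no tagged protein without Dox. The HA-Macro MEF libraries at 3 h and 6 h are given beside the 12 h library, and the corresponding ES pair is given for the main results. ChIP measures no RNA, so the cell type could not be checked against marker transcripts.

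MacroH2A variants replace canonical H2A in nucleosomes and carry a large globular macro domain. They are known from the inactive X chromosome and from broad domains of silent autosomal chromatin, and are generally sparse over actively transcribed genes. An antibody against the variant reads the protein bound at harvest, whenever it was made, whereas the tagged copy reads protein made and incorporated after induction.

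The anti-MacroH2A2 MEF library held 14229026 distinct intervals on chromosomes 1 to 19 and the HA-Macro 12 h library 19279472. Intervals were 400 bp long in the former and 150 bp in the latter, so each was counted at its midpoint and divided by the number of autosomal midpoints in its library, given in parts-per-million (p.p.m.), a relative scale on which more signal in some regions lowers all others. The X chromosome held 3.99% of distinct intervals in the anti-MacroH2A2 library and 2.95% in the HA-Macro library, and the comparison was kept to autosomes. With 1 library per antibody no difference can be set against a spread between cultures, and the 95% intervals given are exact binomial intervals that cover counting error only. Tiles of 100 kb averaged 41.8 and 41.5 p.p.m. in these libraries and promoters 0.695 and 0.596 p.p.m. The median promoter held 8 in the anti-MacroH2A2 library and 9 in the HA-Macro library, so that tiles were measured far more tightly than promoters. Midpoint counts given below are not scaled to depth. HA-Macro at 6 h and 3 h held 10188067 and 10477472 distinct autosomal intervals and the no-Dox library 11381685, so equal counts are not equal levels.

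Sequences that occur more than 1 time in the genome separated the libraries more than any gene class did, and the alpha-globin genes show this directly. The duplicated genes Hba-a1 and Hba-a2 encode the same globin chain of haemoglobin. The 300 bases around their annotated TSSs (250 upstream and 50 downstream, mm9, plus strand, chr11:32183261-32183560 and chr11:32196239-32196538) share an identical run of 139 bases, shown in capitals.
Hba-a1: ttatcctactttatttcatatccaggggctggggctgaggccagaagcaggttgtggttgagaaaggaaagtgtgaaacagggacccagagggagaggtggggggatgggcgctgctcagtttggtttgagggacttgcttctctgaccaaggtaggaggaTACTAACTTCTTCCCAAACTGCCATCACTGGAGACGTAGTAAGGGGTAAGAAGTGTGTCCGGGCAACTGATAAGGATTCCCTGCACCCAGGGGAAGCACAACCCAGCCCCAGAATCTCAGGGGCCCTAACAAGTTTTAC
Hba-a2: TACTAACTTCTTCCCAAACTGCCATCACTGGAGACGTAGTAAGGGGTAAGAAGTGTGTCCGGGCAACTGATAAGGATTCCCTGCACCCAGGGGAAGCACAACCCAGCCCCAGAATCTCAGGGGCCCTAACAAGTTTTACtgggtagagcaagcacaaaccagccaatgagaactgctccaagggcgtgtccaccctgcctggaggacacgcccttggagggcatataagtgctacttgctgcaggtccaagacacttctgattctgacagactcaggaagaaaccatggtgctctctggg
Within 600 bp of the TSS, Hba-a2 held 1 midpoint in the anti-MacroH2A2 library and 34 in HA-Macro at 12 h, with 24 at 6 h, 12 at 3 h and 7 in the no-Dox library. Scaled to depth these were 0.0703, 1.76, 2.36, 1.15 and 0.615 p.p.m. in the same order. Hba-a1 held 2 and 29 midpoints in the anti-MacroH2A2 and HA-Macro 12 h libraries. Only 4.17% of the 32-base sequences sampled across the Hba-a2 promoter occur once in the genome, against 84.6% of 47874195 sampled genome-wide, so most reads of these 2 genes cannot be told apart.

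Sequences are shown next for the single-copy promoters that lay among those farthest apart, with every CG dinucleotide in capitals because CpG content stratified the promoter difference described below. Higher in HA-Macro at 12 h was Rsad2, an interferon-induced antiviral gene (chr12:27141268-27141567, minus strand). Higher in the anti-MacroH2A2 library were Peg3, an imprinted zinc finger gene expressed from the paternal allele (chr7:6683083-6683382, minus strand), and Sdc1, which encodes the cell-surface proteoglycan syndecan 1 (chr12:8777879-8778178, plus strand).
Rsad2: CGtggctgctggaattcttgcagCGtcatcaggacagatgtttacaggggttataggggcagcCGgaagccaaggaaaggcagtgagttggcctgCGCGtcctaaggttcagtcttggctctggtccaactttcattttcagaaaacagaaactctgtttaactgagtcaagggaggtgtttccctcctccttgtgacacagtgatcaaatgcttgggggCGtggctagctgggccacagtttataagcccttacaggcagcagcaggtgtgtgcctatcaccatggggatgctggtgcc
Peg3: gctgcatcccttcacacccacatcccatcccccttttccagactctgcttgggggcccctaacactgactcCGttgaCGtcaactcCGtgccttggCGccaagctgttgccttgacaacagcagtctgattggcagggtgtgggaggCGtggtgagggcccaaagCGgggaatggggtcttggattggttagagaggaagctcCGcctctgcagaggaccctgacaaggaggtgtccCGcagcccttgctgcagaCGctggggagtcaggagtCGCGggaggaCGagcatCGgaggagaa
Sdc1: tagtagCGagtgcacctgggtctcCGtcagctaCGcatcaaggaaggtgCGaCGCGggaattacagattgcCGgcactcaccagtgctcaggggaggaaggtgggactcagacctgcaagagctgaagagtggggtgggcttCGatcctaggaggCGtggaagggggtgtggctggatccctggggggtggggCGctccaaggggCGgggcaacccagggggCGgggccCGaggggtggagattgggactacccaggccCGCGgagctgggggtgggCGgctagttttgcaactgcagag
Across these 300 bases Rsad2 has 6 CG dinucleotides, Peg3 has 13 and Sdc1 has 16. Ranked promoters did not follow CpG content throughout: within 600 bp of the TSS 4931408C20Rik and Gm14192, higher in anti-MacroH2A2, have 1 and 5 CG dinucleotides, and Art4, higher in HA-Macro, has 32.

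At the scale of 100 kb the antibodies gave closely similar maps. The 2 libraries correlated with Pearson r = 0.898 over 23564 tiles, and with r = 0.922 over the 21691 tiles in which at least 70% of sampled 32-base sequences occur once (called single-copy tiles below, a limit set after the values were seen). These are descriptions across tiles that share libraries, base composition and mappability, not across samples. The anti-MacroH2A2 MEF library correlated with HA-Macro at 6 h and 3 h at r = 0.908 and r = 0.929 in single-copy tiles, with the anti-MacroH2A2 ES library at r = 0.683, and with the no-Dox library at r = 0.188. HA-Macro at 12 h correlated with the no-Dox library at r = 0.217.

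The maps shared their highest tiles more often than their lowest. Of the 1085 single-copy tiles in the highest 5% of each library, 796 were in the highest 5% of both, which is 73.4% of each set, and these averaged 80.1 p.p.m. in the anti-MacroH2A2 library and 91.9 p.p.m. in HA-Macro at a GC content of 47.9%. Of the 1085 lowest tiles 491, or 45.3%, were shared. HA-Macro was spread more widely: its single-copy tiles ran from 22.4 p.p.m. at the 5th percentile to 74.9 p.p.m. at the 95th, around a median of 39.0. The anti-MacroH2A2 tiles ran from 27.9 to 67.4 p.p.m. around a median of 41.1. Net of counting error the coefficient of variation was 28.8% for anti-MacroH2A2, 40.1% for HA-Macro at 12 h, 37.2% at 6 h, 39.4% at 3 h and 9.62% for the no-Dox library.

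Of 23564 tiles, 526 were at least 1.5-fold higher in HA-Macro (2.23% of all tiles) and 639 were at least 1.5-fold higher in anti-MacroH2A2 (2.71%). With the libraries scaled to the same median tile these counts were 552 and 435. The groups lay in different kinds of sequence. Of the tiles higher in HA-Macro, 518 were not single-copy, and their median share of sequences occurring once was 17.9%, against 88.8% over all tiles. Their median level was 7.24 p.p.m. in the anti-MacroH2A2 MEF library and 8.51 p.p.m. in the anti-MacroH2A2 ES library, against 24.1 p.p.m. in HA-Macro at 12 h and 39.6 p.p.m. in the no-Dox library. In the tiles farthest apart almost none of the sampled sequences occur once. The leading tile, on chromosome 14 from 6500001 to 6600000, had a share of 0.3% and covers the predicted genes Gm3358 and Gm3526. It held 0.0703 p.p.m. in anti-MacroH2A2 and 26.6 p.p.m. in HA-Macro. The next tile, on the same chromosome from 3800001 to 3900000, covers Gm3002 and Gm3043 and was at 0.0703 and 25.1 p.p.m.

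The gap widened as fewer sequences occurred once. Where 50 to 70% did, tiles averaged 26.3 p.p.m. in anti-MacroH2A2, 27.6 p.p.m. in HA-Macro and 39.5 p.p.m. in the no-Dox library. Where under 10% did, they averaged 1.81, 23.4 and 38.4 p.p.m. in the same order. The methods give random placement of reads with several locations for all libraries. How much of the difference in multi-copy sequence comes from the handling of such reads was not tested, and the results below are given for single-copy sequence as well.

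**Figure D1:**
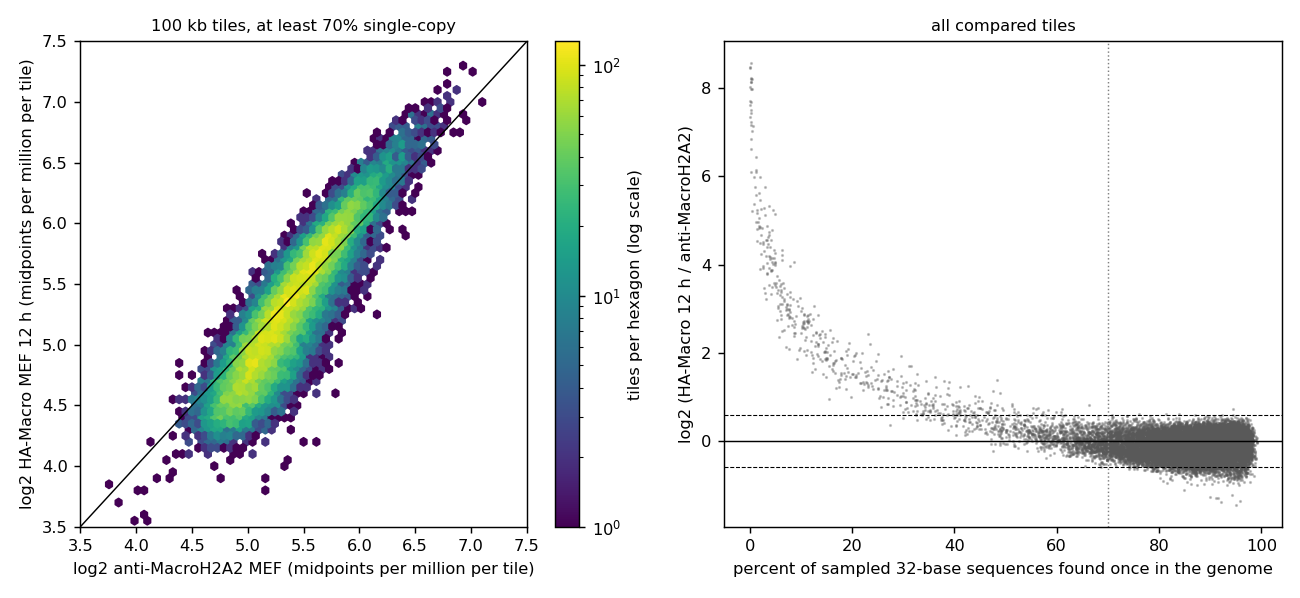
Left, log2 level in p.p.m. of each single-copy 100 kb tile in HA-Macro MEF 12 h (y axis) against anti-MacroH2A2 MEF (x axis), with the number of tiles per hexagon on a log colour scale and a line of equal levels. Right, the log2 ratio of HA-Macro 12 h over anti-MacroH2A2 (y axis) against the percent of sampled 32-base sequences found once in the genome (x axis) for all 23564 tiles, with dashed lines at 1.5-fold and a dotted line at 70%; the ratio rises steeply to the left of that line, where 518 of the 526 tiles higher in HA-Macro lie.

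Among single-copy tiles 8 (0.0369%) were at least 1.5-fold higher in HA-Macro. In the ES pair 178 single-copy tiles were higher in HA-Macro and 121 in anti-MacroH2A2, and the number compared there is not given. The highest of the 8 tiles in the MEF pair was on chromosome 3 from 51500001 to 51600000 within Maml3, which encodes a coactivator of Notch signalling. It stood at 46.5 p.p.m. in anti-MacroH2A2 and 76.5 p.p.m. in HA-Macro (log2 ratio 0.72, 95% interval 0.59 to 0.85). HA-Macro at 6 h and 3 h held 80.2 and 72.0 p.p.m. there, and the no-Dox library 42.6 p.p.m. Others were a cluster of Fc gamma receptor genes on chromosome 1 that holds Fcgr2b, Fcgr3 and Fcgr4 (49.1 against 75.2 p.p.m.), a tile of Sytl3 and Ezr on chromosome 17 (43.6 against 66.5 p.p.m.), a tile of the anion channel subunit gene Lrrc8d on chromosome 5 (54.4 against 82.1 p.p.m.) and a tile of Ahnak and Scgb1a1 on chromosome 19 (45.6 against 69.1 p.p.m.). In all 5 of these tiles the 3 h and 6 h HA-Macro levels also lay above the anti-MacroH2A2 level.

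The 639 tiles higher in anti-MacroH2A2 were all single-copy (2.95% of single-copy tiles) and poor in genes. They averaged 0.646 annotated TSSs per tile against 1.41 over all tiles, and 424 of them, or 66.4%, held none, against 42.9% of all tiles. Their mean level was 39.1 p.p.m. in anti-MacroH2A2, 24.3 p.p.m. in HA-Macro and 38.3 p.p.m. in the no-Dox library. Many were neighbours: they fell into 452 runs, and 162 tiles lay in 36 runs of at least 3 tiles.

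The runs of at least 4 tiles included stretches of long genes and stretches without a protein-coding gene. An 800 kb run in Nrxn3, which encodes the presynaptic adhesion protein neurexin 3, held 37.2 p.p.m. per 100 kb in anti-MacroH2A2 and 21.7 in HA-Macro (log2 ratio -0.78, 95% interval -0.84 to -0.71). An 800 kb run in Csmd1, a large complement-regulating membrane protein gene of the brain, held 34.8 and 21.5 p.p.m. per 100 kb. In a 700 kb run in Dpp6, which encodes an auxiliary subunit of neuronal potassium channels, the levels were 37.9 and 21.7 p.p.m. per 100 kb, and in a 400 kb run in Cntnap5a, a contactin-associated protein gene, they were 37.5 and 22.6. Without a protein-coding gene, an 800 kb run on chromosome 5 from 126600001 to 127400000 held 39.9 and 24.6 p.p.m. per 100 kb, and a 500 kb run on chromosome 15 from 87800001 to 88300000 held 45.7 and 25.6. A 600 kb run on chromosome 7 that holds Umod, the gene of the kidney protein uromodulin, Gp2 and the medium-chain acyl-CoA synthetase genes Acsm1, Acsm2 and Acsm5 held 36.8 and 22.3. Across the 14 runs of at least 4 tiles outside chromosome 14, anti-MacroH2A2 held 34.7 to 49.6 p.p.m. per 100 kb, HA-Macro 21.5 to 31.6 and the no-Dox library 34.4 to 44.1. In these runs the anti-MacroH2A2 level lay near that of the no-Dox library, which varies little between tiles, and HA-Macro lay below both. That HA-Macro lay below anti-MacroH2A2 follows from how the tiles were chosen, so no pattern is read from it. The log2 ratio of the ES pair in the same runs ranged from -0.43 to 0.13.

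Among runs of single-copy tiles the longest were in a stretch of chromosome 14. The 2 longest runs higher in anti-MacroH2A2 lay there, from 70500001 to 71500000 and from 71600001 to 73300000. Both fall in the only run of at least 5 single-copy tiles whose no-Dox level was below 0.75 times the median tile (chr14:70400001-73300000, 29 tiles, 26 protein-coding genes overlapping). Of the libraries this definition uses the no-Dox one alone, but it also requires single-copy tiles, a limit set after the values were seen. Multi-copy tiles with a low no-Dox level could not enter such a run. Inside the chromosome 14 run the anti-MacroH2A2 MEF library had a median of 42.9 p.p.m. per tile, against 43.6 in 39 flanking tiles. The anti-MacroH2A2 ES library had 36.0 against 38.5. HA-Macro MEF 12 h had 22.0 p.p.m. against 44.4, or 0.495 times its flanks. HA-Macro MEF at 6 h and 3 h stood at 0.477 and 0.532 times their flanks, HA-Macro ES 12 h at 0.565 times and the no-Dox library at 0.535 times.

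The HA-Macro MEF libraries and HA-Macro ES 12 h were thus low in this stretch, and the anti-MacroH2A2 libraries were not. The no-Dox library was low there by the definition of the run. Of 18 gene bodies measured in it, 17 were lower in HA-Macro 12 h with a counting interval that excludes equal levels. The share of all gene bodies that meet this criterion is not given, and most tiles of the stretch were themselves called. The count is therefore not read as a result about genes. Bmp1, a procollagen-processing protease gene, held 266 midpoints in anti-MacroH2A2 and 143 in HA-Macro, a 2.52-fold difference after scaling. Xpo7, a nuclear transport receptor gene, held 416 and 272 midpoints, and Fndc3a, a fibronectin type III domain gene, 674 and 458. The exception was Pebp4, which extends out of the stretch, with 2101 and 2726 midpoints. Of the 639 tiles higher in anti-MacroH2A2, 27 lay here, and 612 remained when the stretch was left out. The labels call the anti-MacroH2A2 cells wild type, whereas the study describes anti-MacroH2A2 maps from HA-Macro cells, so that whether the cells share a genotype is not settled here. A difference in the cells and a difference in Macro cannot be told apart from the ratio of these libraries.

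**Figure D2:**
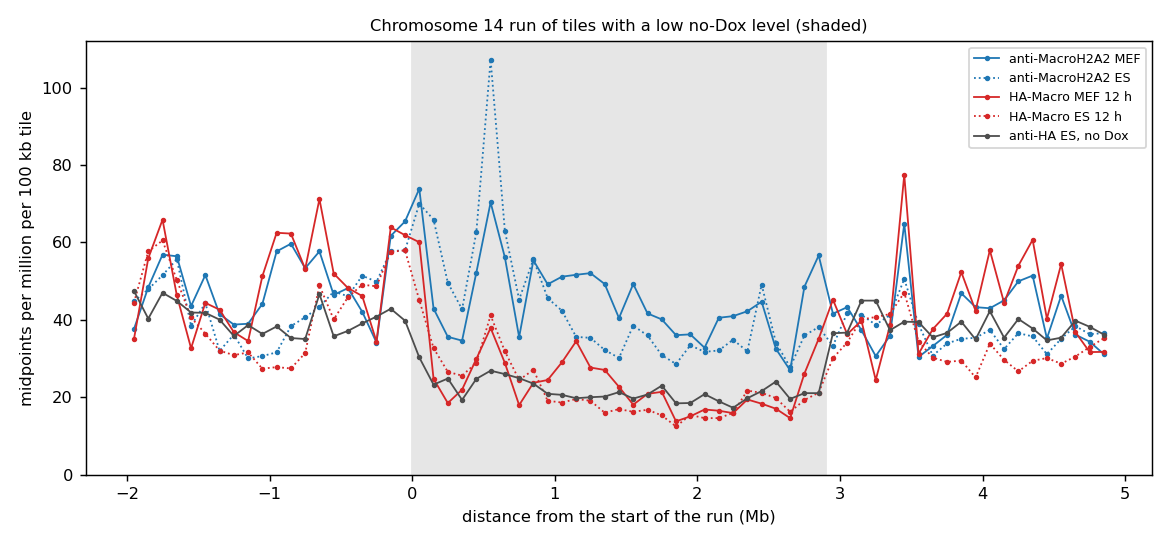
Level in p.p.m. per 100 kb tile (y axis) against the distance in Mb from the start of the chromosome 14 run (x axis; run shaded, 2 Mb shown on each side) for 5 libraries. Inside the run the anti-MacroH2A2 MEF and ES lines stay near their flanking levels, at medians of 42.9 and 36.0, while the HA-Macro MEF 12 h, HA-Macro ES 12 h and no-Dox lines fall to medians of 22.0, 19.3 and 20.9.

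Base composition accompanied the difference between the antibodies. In single-copy tiles the mean level rose from the lowest to the highest quintile of GC content in both libraries, from 34.97 to 55.4 p.p.m. in anti-MacroH2A2 and from 30.3 to 58.1 p.p.m. in HA-Macro, while the no-Dox library went from 40.5 to 45.3 p.p.m. The log2 ratio of HA-Macro over anti-MacroH2A2, pooled over the tiles of a quintile, went from -0.20 in the lowest (mean GC content 37.01%) through -0.092, -0.029 and 0.031 to 0.067 in the highest (48.0%). The difference between the extreme quintiles was 0.27 in single-copy tiles and 0.26 in all tiles. By the same steps the ES pair gave 0.032 in single-copy tiles and 0.020 in all tiles. Within the quintiles the SD of the log2 ratio over tiles was 0.224 to 0.238, against 0.0698 to 0.0903 from counting alone, so that tiles of like GC content still differed beyond counting error.

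The relation to gene number depended on GC content. Over all tiles those with at least 4 TSSs had a pooled log2 ratio 0.12 above tiles without a TSS, and over single-copy tiles 0.096 above. Within the lowest GC quintile, however, single-copy tiles with at least 4 TSSs stood at -0.36 and those with none at -0.20, and in the next quintile at -0.20 and -0.089. In the middle quintile the values were -0.053 and -0.033, and in the highest 0.062 and 0.040. Within the GC quintiles both libraries were lower where genes were many, although over all single-copy tiles they were not. In the lowest GC quintile the mean level was 29.5 p.p.m. with at least 4 TSSs and 35.2 with none in anti-MacroH2A2, and 23.0 and 30.5 in HA-Macro. In the no-Dox library it was 42.2 and 40.4 p.p.m. In AT-rich tiles the lower level with many TSSs was thus more marked in HA-Macro.

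**Figure D3:**
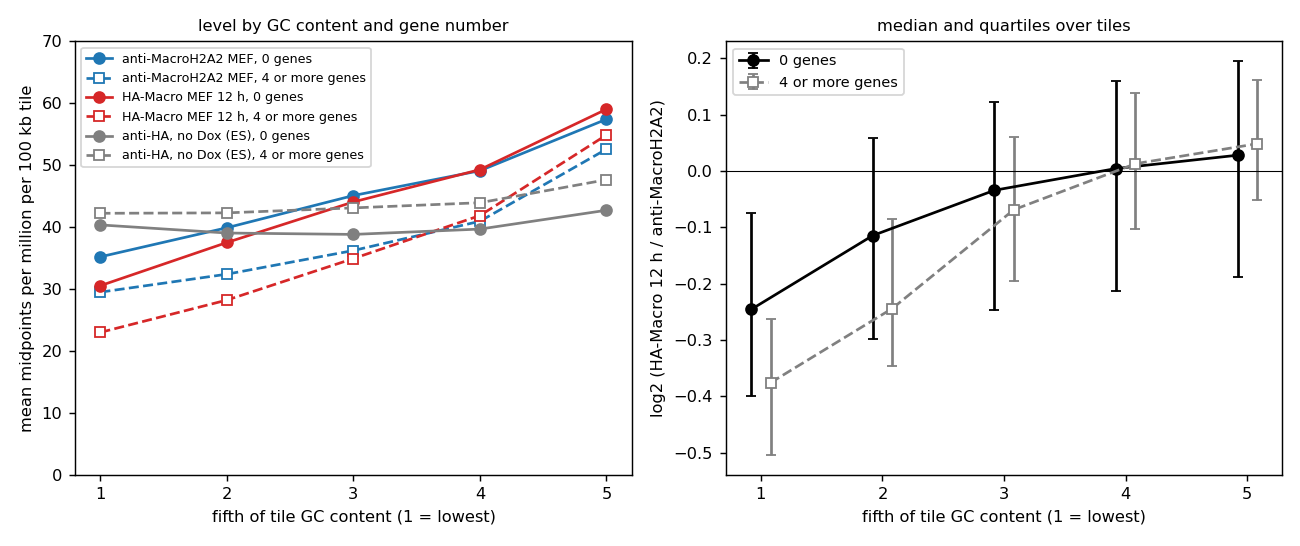
Left, mean level in p.p.m. per single-copy 100 kb tile (y axis) by quintile of GC content (x axis) for anti-MacroH2A2 MEF, HA-Macro MEF 12 h and the no-Dox library, in tiles with 0 (filled) and with 4 or more TSSs (open). Right, the median log2 ratio of HA-Macro 12 h over anti-MacroH2A2 with bars from the lower to the upper quartile of tiles; the ratio rises with GC content in both gene classes, and in the lowest quintile gene-rich tiles lie lower, at a median of -0.38 against -0.25.

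The level at TSSs lay above that upstream in both libraries, by more with the anti-MacroH2A2 antibody, and in HA-Macro 12 h by less than in the uninduced ES cells. Around 16895 single-copy promoters (at least 90% of sampled sequences occurring once), the mean level within 600 bp of the TSS over that from 4 to 2 kb upstream was 0.42 on the log2 scale in anti-MacroH2A2 (95% interval 0.41 to 0.42) and 0.055 in HA-Macro 12 h (0.047 to 0.063). It was 0.21 at 6 h, 0.26 at 3 h and 0.36 in the no-Dox library, so the 12 h HA-Macro level at TSSs lay below that of the uninduced ES cells and the anti-MacroH2A2 level above it. The highest 100 bp bin was 0.80 and centred 250 bp downstream of the TSS in anti-MacroH2A2, and 0.36 and centred at 150 bp in HA-Macro. HA-Macro 12 h also dipped upstream of the TSS, to -0.22 at 250 bp, where the lowest bin within 600 bp was -0.059 in anti-MacroH2A2 and 0.051 in the no-Dox library. A 400 bp interval blurs features of this width more than a 150 bp interval, and the part of interval length in the shape was not tested. In the ES pair the peak was 1.06 with anti-MacroH2A2 and 0.18 with HA-Macro.

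**Figure D4:**
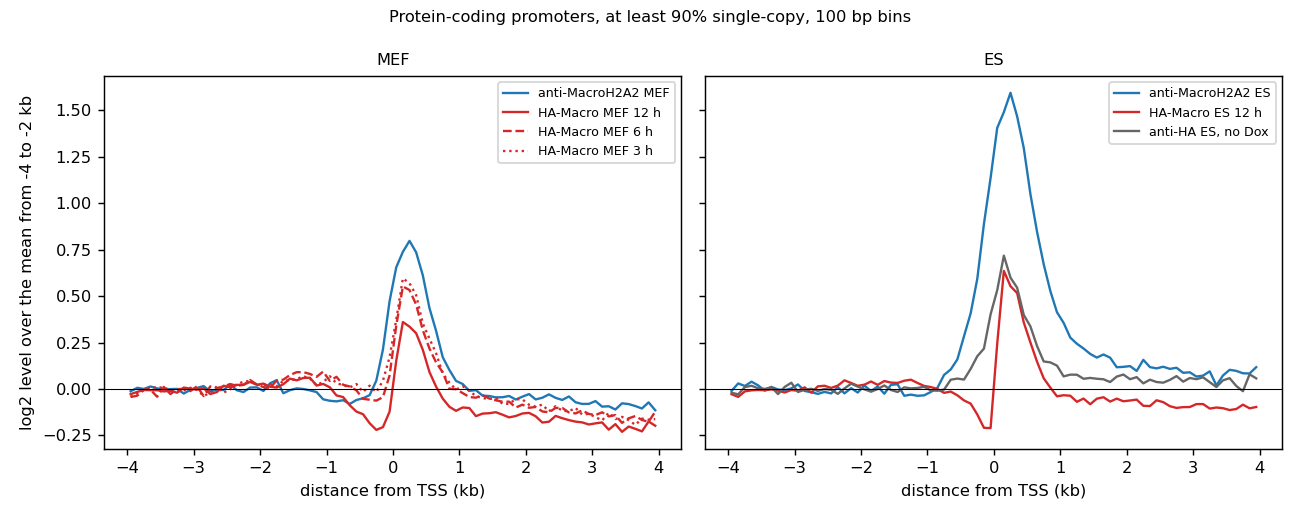
Log2 level in 100 bp bins over the mean from 4 to 2 kb upstream (y axis) against distance from the TSS in kb (x axis), averaged over 16895 single-copy protein-coding promoters, in MEFs (left) and ES cells (right). In MEFs the anti-MacroH2A2 line peaks at 0.80 and the HA-Macro 12 h line at 0.36, with the 6 h and 3 h lines between them at 0.55 and 0.60; in ES cells the anti-MacroH2A2 line peaks at 1.59, and the HA-Macro 12 h and no-Dox lines at 0.64 and 0.72.

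Pooled over 20777 protein-coding promoters the log2 ratio of HA-Macro 12 h over anti-MacroH2A2 was -0.22 (95% interval -0.23 to -0.21), and over single-copy promoters -0.30 (-0.31 to -0.29). In the 1145 promoters with under 50% of sequences occurring once it was 1.90, and 570 of those held no midpoint in anti-MacroH2A2, against 7 in HA-Macro. CpG content divided the single-copy promoters. In the lowest 2 quintiles, with medians of 10 and 28 CG dinucleotides within 600 bp of the TSS, the pooled log2 ratio was -0.12 and -0.053. In the upper 3 quintiles, with medians of 56, 77 and 109, it was -0.35, -0.48 and -0.49. In the highest CpG quintile the level per promoter was 0.904 p.p.m. in anti-MacroH2A2, 0.642 in HA-Macro and 0.832 in the no-Dox library, and the TSS peak was 0.65, 0.053 and 0.66 in the same order. The peak at CpG-rich promoters was therefore about as tall in anti-MacroH2A2 as in the anti-HA library from uninduced ES cells, and HA-Macro 12 h had almost none. At 3 h and 6 h the HA-Macro MEF peak in this quintile was 0.39 and 0.34. The pooled log2 ratio over anti-MacroH2A2 at 6 h was -0.16, -0.023, -0.17, -0.28 and -0.22 from the lowest to the highest CpG quintile. At 3 h it was -0.15, 0.024, -0.14, -0.23 and -0.22. At these times too the upper quintiles lay below the second lowest, by less than at 12 h, while the lowest quintile was close to the upper ones. The lowest quintile's promoters with at least 30 midpoints had a median of 0.15 at 12 h, and of these 530 promoters 45 were at least 2-fold higher in HA-Macro and 16 in anti-MacroH2A2. In the highest quintile 6 and 92 of 785 were, against 3.22% and 6.65% over all single-copy promoters compared. Only 530 of the 3569 promoters in the lowest quintile reached the minimum. It counts both libraries together and HA-Macro is the deeper one, so promoters high in HA-Macro reach it more readily. The positive median and the split of calls are therefore not read as a direction of this quintile. In the ES pair the pooled ratio was -0.69 over all promoters and -0.80 over single-copy promoters.

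Single promoters were measured loosely. For equal levels and 30 midpoints in all, the 95% interval of the ratio runs from 0.441 to 2.16, so that counting error alone carries promoters at this minimum past 2-fold. Of the 4071 promoters with at least 30 midpoints over both libraries, 192 were at least 2-fold higher in HA-Macro (4.72% of those compared) and 261 in anti-MacroH2A2 (6.41%). Of the 3729 that are single-copy the numbers were 120 (3.22%) and 248 (6.65%). In the ES pair 54 and 2143 promoters were past 2-fold in the same order. How many ES promoters reached the minimum is not given, and the ES anti-MacroH2A2 library is shallower (8283985 distinct autosomal intervals). These counts are therefore not set against those of the MEF pair. In the MEF pair the whole counting interval lay beyond 2-fold for 2 single-copy promoters in favour of HA-Macro and for 5 in favour of anti-MacroH2A2.

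The 10 promoters ranked highest in favour of HA-Macro over the whole genome were multi-copy. Gm4782, a predicted gene, held 0 midpoints in anti-MacroH2A2 and 40 in HA-Macro, at least 7.64-fold higher by the exact 95% interval (9.84-fold against a floor of 3 midpoints). Gm6996 held 0 and 38, at least 7.24-fold higher by the same interval (9.35-fold against the floor). Hba-a2, shown above, was the only well-known gene of the 10. The other promoters of this ranking were Gm3512, Gm1604A, Gm2833, Gm8206, Gm3715, Gm11011 and Gm11554, with 0 to 7 midpoints in anti-MacroH2A2 and 30 to 77 in HA-Macro.

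Among single-copy promoters the 2 whose interval lay wholly past 2-fold in favour of HA-Macro were A430093F15Rik and Stmn2, which encodes the neuronal microtubule regulator stathmin 2. Stmn2 held 8 midpoints in anti-MacroH2A2 and 47 in HA-Macro at 12 h, a 4.34-fold difference (95% interval 2.03 to 10.6), with 11 at 6 h, 17 at 3 h and 4 in the no-Dox library. Scaled to depth the 3 h and 6 h levels, 1.62 and 1.08 p.p.m., lay between those of anti-MacroH2A2 (0.562) and HA-Macro 12 h (2.44). The latter 2 libraries were used to choose the promoter, so levels between them are not read as a time course. Rsad2 held 8 and 42 midpoints (3.87-fold, 1.80 to 9.56), and 7 at 6 h, where its log2 ratio over anti-MacroH2A2 was 0.29 instead of 1.95. Krt7, a keratin gene of simple epithelia, held 7 and 36, and Amotl1, which encodes a tight-junction protein of the angiomotin family, 12 and 50. In the ES pair Stmn2 held 7 and 9 midpoints and Rsad2 12 and 16, at log2 ratios of -0.69 and -0.64. Pla1a, 4930435H24Rik, Art4, C030048H21Rik and Lcn5 completed the ranking, with 4 to 6 midpoints in anti-MacroH2A2 and 26 to 32 in HA-Macro.

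In favour of anti-MacroH2A2 the interval lay wholly past 2-fold at 4931408C20Rik, Olfr1344, Peg3, Sdc1 and Gm14192. Peg3 held 42 midpoints in anti-MacroH2A2 and 15 in HA-Macro at 12 h, a 3.79-fold difference (95% interval 2.06 to 7.36), with 10 at 6 h, 16 at 3 h and 8 in the no-Dox library. Sdc1 held 25 and 7 midpoints (4.84-fold, 2.03 to 13.3), and 12 at 6 h, where its log2 ratio was -0.58 instead of -2.27. Olfr1344, an odorant receptor gene, held 39 and 13. Further genes of the ranking were Slc22a12, a renal urate transporter (26 and 8 midpoints), Gas2, a growth-arrest gene with a CpG-rich promoter (28 and 9), Tubb6, a beta-tubulin (29 and 10), Sh3rf3 (25 and 8) and Gm7120 (42 and 17). At Peg3 and Sdc1 the HA-Macro 3 h level, 1.53 and 1.24 p.p.m., lay between the 12 h level (0.778 and 0.363) and the anti-MacroH2A2 level (2.95 and 1.76). Here too the choice rested on the 12 h and anti-MacroH2A2 libraries, and no time course is read from it.

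**Figure D5:**
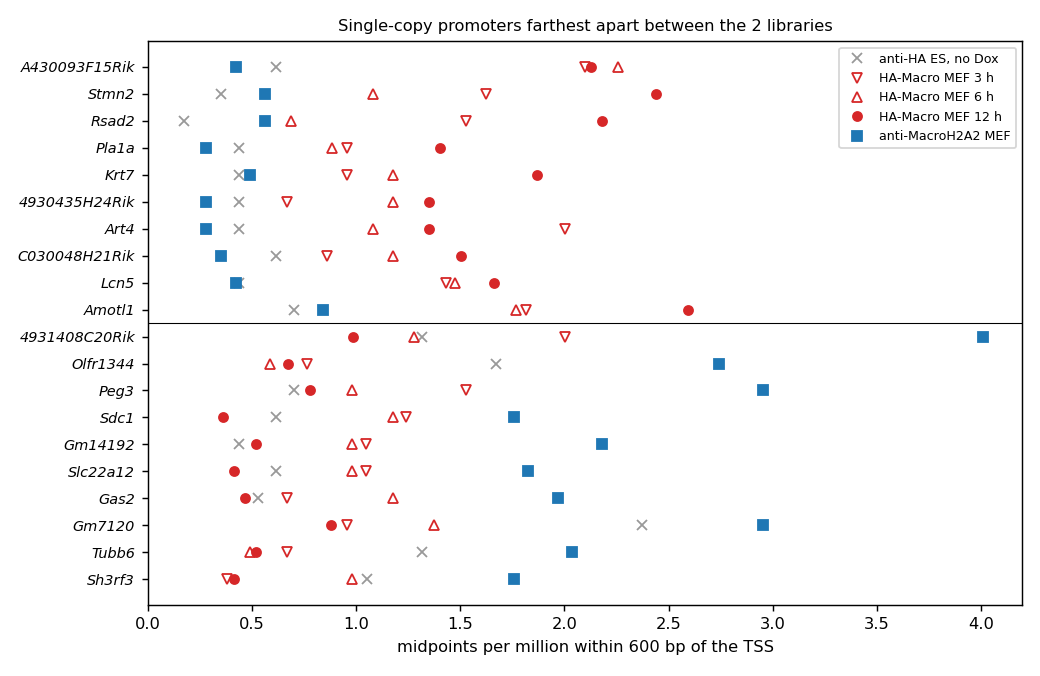
Level in p.p.m. within 600 bp of the TSS (x axis) in 5 libraries for the 10 single-copy promoters ranked highest in favour of HA-Macro MEF 12 h (above the line) and of anti-MacroH2A2 MEF (below it). The 2 libraries were used to choose these promoters, so their separation is a description. The 3 h and 6 h HA-Macro points lie between them except at A430093F15Rik, Art4, Olfr1344, Tubb6 and Sh3rf3, where 1 of these points lies outside. Libraries not used in the choice tend to fall between chosen extremes, so nothing is read from these positions.

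The pooled ratios of chosen gene lists are read beside -0.22 over all promoters. The 29 extracellular matrix and fibroblast promoters, genes that MEFs use heavily, were low in both libraries, with medians of 5 midpoints in anti-MacroH2A2 and 7 in HA-Macro and levels per promoter of 0.463 and 0.435 p.p.m., against 0.645 in the no-Dox library. Their pooled log2 ratio was -0.091 (95% interval -0.37 to 0.19), and of 2 that reached 30 midpoints none was called. Col1a1, the type I collagen gene beside the transgene, held 6 and 4 midpoints, Lox, a collagen crosslinking enzyme, 3 and 4, and Col5a1, a fibrillar collagen gene, 11 and 15. Tgfb2, a TGF-beta ligand, held 2 and 16. The 69 cytosolic ribosomal protein promoters were also low, at 0.510 and 0.432 p.p.m. per promoter, with a pooled log2 ratio of -0.24 (-0.41 to -0.064), and none of the 4 that reached 30 midpoints was called. Rpl8 held 12 and 12 midpoints and Rpl32 held 6 and 10. After scaling to depth these were log2 ratios of -0.44 and 0.30, with counting intervals that include equal levels.

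Lists of genes known from other lineages had higher levels per promoter than the matrix list in both libraries. The 15 pluripotency promoters averaged 1.33 p.p.m. in anti-MacroH2A2 and 1.12 in HA-Macro, against 0.621 in the no-Dox library, with a pooled log2 ratio of -0.25 (95% interval -0.49 to -0.017). Pou5f1, the gene of Oct4, held 42 and 49 midpoints, Fgf4, a growth factor gene of the early embryo, 41 and 41, and Nanog 9 and 14. After scaling to depth the log2 ratio was -0.44 at Fgf4 and 0.20 at Nanog, with counting intervals that include equal levels. The 11 germ line promoters averaged 1.48 and 1.34 p.p.m. with a ratio of -0.14 (-0.40 to 0.11), and Dazl, an RNA-binding protein gene of germ cells, held 37 and 49. No pluripotency or germ line promoter was called among 10 and 9 that reached 30 midpoints. The 14 neuronal promoters averaged 1.02 and 1.16 p.p.m. with a ratio of 0.18 (-0.075 to 0.45), and 1 of the 7 that reached the minimum, Stmn2, was called. Of 13 muscle promoters 7 reached it, with 1 call in each direction: Myh7, the slow cardiac myosin heavy chain, at 8 and 26 midpoints, and Actc1, cardiac actin, at 19 and 12. Over all promoters compared 4.72% were called in favour of HA-Macro and 6.41% in favour of anti-MacroH2A2, and nothing is read from single calls in lists of this size. Of 12 leukocyte promoters 3 reached it and none was called, and their pooled ratio was -0.38 (-0.72 to -0.031), at 0.814 and 0.627 p.p.m. per promoter.

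Over 1106 olfactory receptor (Olfr) promoters, which are CpG-poor, the pooled log2 ratio was -0.50, and over the 556 that are single-copy it was -0.74 (95% interval -0.81 to -0.68), at 0.551 p.p.m. per promoter in anti-MacroH2A2, 0.329 in HA-Macro and 0.574 in the no-Dox library. Zinc finger (Zfp) promoters had a ratio of -0.45 over 346 and -0.55 over 277 single-copy members. The 40 annotated Hox promoters, of the homeobox genes that set position along the body axis, averaged 1.06 and 0.899 p.p.m. with a ratio of -0.24 (-0.40 to -0.085), and 1 of 20 that reached 30 midpoints was called, Hoxb1, at 34 and 17, against 6.41% of all promoters compared. Hoxa3 is annotated under 2 gene identifiers, so its 15 and 13 midpoints are counted in both entries. Histone (Hist) promoters turned direction with copy number: their ratio was 0.69 over 66 and -0.77 over the 8 that are single-copy. Promoters of the variants' own genes were too shallow to separate, with 5 and 9 midpoints at H2afy2, which encodes MacroH2A2, 2 and 3 at H2afy, 7 and 14 at H3f3a and 7 and 13 at H3f3b. Over H2afy2 exons, which the HA-Macro cassette also carries in part, the libraries held 10 and 24 midpoints, and the exon level was 0.727 and 1.54 times the intron level. It was 1.93 and 1.42 times in HA-Macro at 6 h and 3 h, and 1.47 times in the no-Dox library. In the ES pair the exon level was 1.66 times the intron level with anti-MacroH2A2 and 1.21 times with HA-Macro 12 h.

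Gene bodies, taken from 2 kb downstream of the TSS to the end in 14101 protein-coding genes with at least 5 kb of body, had a pooled log2 ratio of -0.057, and -0.071 in 13306 bodies with at least 70% of sequences occurring once. Of 14041 bodies with at least 30 midpoints, 499 were at least 1.5-fold higher in HA-Macro (3.55%) and 774 in anti-MacroH2A2 (5.51%). In single-copy bodies 116 were at least 1.5-fold higher in HA-Macro (0.872% of those compared) and 765 in anti-MacroH2A2 (5.75%). Calls were most frequent in short bodies: 269 of 2156 bodies of 5 to 10 kb were higher in anti-MacroH2A2, against 22 of 1815 bodies of 100 to 400 kb, and the counting interval is widest for the former. In 300 bodies of at least 400 kb the pooled ratio was -0.13 and the median -0.14, against a median of -0.11 over all single-copy bodies. Of these long bodies 6 were higher in anti-MacroH2A2 by 1.5-fold, which is 2% and below the share over all single-copy bodies.

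The following bodies were ranked by their intervals after values had been seen. Among the longest, Csmd2, a relative of Csmd1, held 3706 midpoints in anti-MacroH2A2 and 3222 in HA-Macro (log2 ratio -0.64), Cntnap5a 4305 and 3760 (-0.63) and Dpp6 4972 and 4360 (-0.63). Grid1, a glutamate receptor subunit of the delta type, held 3989 and 3553 (-0.61). In the opposite direction, Maml3 held 2521 and 4674 midpoints (0.45) and Thsd4, a thrombospondin-domain gene, 5034 and 8465 (0.31). Among shorter bodies higher in HA-Macro, Mepe, a bone matrix phosphoglycoprotein gene, held 129 and 341 (0.96), Igfbp4, an insulin-like growth factor binding protein gene, 65 and 178 (1.02), and Ctcfl, a germ line paralogue of Ctcf, 236 and 536 (0.75). Outside the chromosome 14 stretch the body farthest in favour of anti-MacroH2A2 was Ssb, which encodes the La RNA-binding protein. It held 44 midpoints in anti-MacroH2A2 and 13 in HA-Macro at 12 h (log2 ratio -2.20, 95% interval -3.21 to -1.28), and 42 in the no-Dox library. Per 100 kb Ssb stood at 37.3 p.p.m. in anti-MacroH2A2 and 8.14 in HA-Macro at 12 h, but at 27.2 at 6 h and 24.2 at 3 h. The gap was thus smaller in the other HA-Macro MEF libraries.

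Distal windows of 5 kb, more than 10 kb from any TSS and outside every annotated gene, had the same share of midpoints in both libraries as far as the pooled log2 ratio over 214525 windows shows (-0.0017). That balance combined opposite parts: the ratio was 0.71 in 41755 windows that are not single-copy and -0.085 in 172770 that are. In the single-copy windows it followed GC content, from -0.35 in the lowest quintile to 0.11 in the highest. Of 200877 windows with at least 30 midpoints, 9312 were at least 2-fold higher in HA-Macro (4.64%) and 10910 in anti-MacroH2A2 (5.43%). Of 171475 single-copy windows it was 1059 (0.618%) and 10725 (6.25%), and the counting interval was wholly past 2-fold for 23 and 158 of them. In the ES pair 4707 and 6906 single-copy windows were past 2-fold. The number of ES windows compared is not given, so these counts have no share to set beside those of the MEF pair.

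The single-copy window ranked highest in favour of HA-Macro lay on chromosome 16 from 86820001 to 86825000, 529 kb from N6amt1, a methyltransferase gene. It held 39 midpoints in anti-MacroH2A2, 275 in HA-Macro at 12 h, 163 at 6 h, 178 at 3 h and 89 in the no-Dox library. These counts are not scaled, and the 6 h and 3 h libraries are shallower than the 12 h library. The 300 bases with the most HA-Macro midpoints (chr16:86821111-86821410, plus strand) held 134 of the 275, against 1 in anti-MacroH2A2 and 45 in the no-Dox library. They are a tandem repeat, in which 6 copies of an identical 20-base stretch are shown in capitals, although 80% of the sequences sampled in the whole window occur once. The bases between these copies also repeat, with small differences, so the repeated unit is longer than the capitals.
Chromosome 16 window: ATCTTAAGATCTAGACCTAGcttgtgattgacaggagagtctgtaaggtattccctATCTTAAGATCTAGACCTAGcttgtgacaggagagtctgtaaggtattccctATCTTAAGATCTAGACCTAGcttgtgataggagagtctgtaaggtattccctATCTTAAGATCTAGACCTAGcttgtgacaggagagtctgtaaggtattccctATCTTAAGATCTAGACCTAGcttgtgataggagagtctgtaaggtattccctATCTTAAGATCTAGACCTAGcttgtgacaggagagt
In favour of anti-MacroH2A2 the leading window lay in the chromosome 14 stretch, from 71960001 to 71965000, with 52 midpoints in anti-MacroH2A2, 11 in HA-Macro and 10 in the no-Dox library. Outside that stretch the leading windows were on chromosome 2 from 149205001 to 149210000, 20.8 kb from the cystatin gene Cst10, with 35, 6 and 30 midpoints in the same libraries, and on chromosome 16 from 19465001 to 19470000, 16.9 kb from the odorant receptor gene Olfr166, with 34, 6 and 27. The last 2 windows were chosen for a low HA-Macro count against anti-MacroH2A2, and their anti-MacroH2A2 and no-Dox counts were close.

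Divided into annotated classes, outside the discarded tiles, promoters took 1.40% of the midpoints in anti-MacroH2A2 and 1.21% in HA-Macro, exons 3.80% and 3.66%, introns 36.3% and 35.4%, and intergenic sequence 58.5% and 59.7%. These classes make up 1.00%, 3.09%, 38.0% and 57.9% of called bases. In the no-Dox library the shares were 1.32%, 3.83%, 38.7% and 56.2%.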

How the data were processed

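Mapped intervals of ChIP-Seq reads were analysed in 7 of 11 mouse libraries, with 1 library per condition grouped by its label. Per the labels and methods, identical reads were merged by the authors and placed on mm9 by Bowtie 1.0 (version from the submitters' processing notes) with at most 1 mismatch, 1 random location was kept for reads with several, and reads were extended. The deposited files list intervals by start and end only, with no normalisation, strand or count. Intervals are 400 bp in the anti-MacroH2A2 libraries and 150 bp in the anti-HA libraries.

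Midpoints of distinct intervals on chromosomes 1 to 19 were counted and divided by the library total. Tiles with under 80% called bases, the top 1% of tiles by no-Dox midpoints and tiles empty in either library were left out. Genes (34653, of which 21418 protein-coding) and TSSs came from GENCODE on mm9 (NCBIM37). Sequences were read from the same build. Copy number was measured by looking up a 32-base sequence every 50 bases, on both strands. Ratios have exact conditional binomial 95% intervals. No test across samples was possible and no p-value is given. Named promoters have at least 30 midpoints and are the 10 farthest from equal levels by the nearer interval bound in each direction; windows and tiles follow the same rule with the leading 5 in each direction. The genes named by the study in connection with these libraries, the histone variant genes and the gene lists were added. The same rule was applied within single-copy sequence, and for gene bodies, after values were seen. The compared libraries and the gene lists were chosen with earlier results of these data known. Ratios and intervals were tested on simulated counts. Python 3.11.15, numpy 2.4.6, pandas 2.3.3, scipy 1.17.1, numba 0.67.0 and matplotlib 3.10.9 were used. Depth ranged from 8283985 to 19279472 distinct autosomal intervals in the 7 libraries. Alternatives were every deposited interval, a thinned HA-Macro library, other scalings, window sizes, minimums and thresholds, coverage in place of midpoints, division by the no-Dox library, and HA-Macro at 6 h.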

Additional observations from a re-analysis of the deposited data

Results flagged for a closer look

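The pooled log2 ratio of HA-Macro 12 h over anti-MacroH2A2 in distal windows was 0.0303 in the ES pair and -0.0017 in the MEF pair. The opposite directions drew attention to it, but with 1 library each the difference between cell types was not tested. In single-copy windows the ratios were -0.083 and -0.085, in the same direction.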

How the results depend on the processing

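No paired analysis was possible because each condition has 1 library. Ratios below are log2 of HA-Macro over anti-MacroH2A2, and the causes of these changes were not tested except where the construction shows them. The distal window ratio turned positive with no tile discarded (0.0027) and with libraries scaled to the same median tile (0.040), was -0.028 with every deposited interval, -0.022 with HA-Macro 6 h and -0.0081 in 10 kb windows, and is best read as near 0. With every interval the GC difference was 0.26, the promoter ratio -0.25 and the gene body ratio -0.085. With no tile discarded the tile correlation was 0.812, the GC difference 0.26, the gene-number difference 0.14, the promoter ratio -0.16, the HA-Macro TSS peak 0.087 and the gene body ratio -0.047. With equal medians the promoter ratio was -0.18 and the body ratio -0.015. With HA-Macro 6 h the GC difference was 0.20, the gene-number difference 0.13, the promoter ratio -0.10, the TSS peak 0.22 and the body ratio -0.033. That library is shallower, and it gave 83 and 121 promoters (HA-Macro and anti-MacroH2A2 higher) and 4505 and 12845 windows. Thinning HA-Macro 12 h gave 105 and 158 promoters and 5856 and 11254 windows, so that counts of windows did not fall in both directions with depth. Promoters of 1 kb each side gave a ratio of -0.14 and 364 and 623 calls, and a minimum of 15 midpoints 809 and 2185. A minimum of 60 left 1742 and 2226 windows. The numbers compared at these settings are not given, so the counts have no shares. At 15 midpoints counting error carries more promoters past 2-fold, and the larger counts are not read as more differing promoters. At 2-fold 380 tiles were higher in HA-Macro and 9 in anti-MacroH2A2. In 1 Mb tiles the GC difference was 0.22. The gene-number difference was 0.067 with protein-coding genes and 0.10 in the middle GC quintile of all tiles, where in single-copy tiles it had the opposite sign. With all genes the TSS peaks were 0.29 and 0.099.

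Restriction to single-copy sequence, added after seeing the data, gave 8 tiles, 120 promoters and 1059 windows with HA-Macro higher, a GC difference of 0.27, a gene-number difference of 0.096, TSS peaks of 0.42 and 0.055, and ratios of -0.30 in promoters, -0.071 in gene bodies and -0.085 in distal windows. Leaving out the chromosome 14 run, also added then, changed none of these results beyond its counting interval or 1.5 times. Of 144 values for 36 named promoters under other settings, 6 left the counting interval, all with HA-Macro 6 h and toward equal levels: Stmn2 (0.94), Rsad2 (0.29), Sdc1 (-0.58), Slc22a12 (-0.90), Gas2 (-0.74) and Sh3rf3 (-0.84). These 6 were among the promoters chosen as extremes. The other settings recount the same 2 libraries and were likely to stay within the interval. Only HA-Macro 6 h brings in another library, so the 144 values do not measure stability. Shallow promoters with levels near equal changed sign, such as Lox (-0.023 as reported, 1.70 with HA-Macro 6 h). Single promoters are limited by depth, and nothing here measures the spread between cultures.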
